A study of Homo sapiens with 12 samples.

Results

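The transcripts described here are those of 10 secreted proteins that act in the signalling of the TGF-beta superfamily. They were taken by gene symbol from 28278 genes in a table of read counts. LEFTY1 and LEFTY2 encode inhibitors of Nodal, and INHBA, INHBB and INHBE encode the beta subunits from which activins are built. GDF11, TGFB1, TGFB2 and TGFB3 encode further ligands, and FST encodes follistatin, which binds and neutralises activins. The 10 genes were chosen with the difference between tunicamycin and DMSO in these same samples already known. Their values in that comparison are therefore a description and no p is given for them. Whether a gene passed the threshold in the fit over all genes is stated as part of that description, not as evidence. Tests are kept for the sequencing batch and for the order of levels, although that order was itself taken from these samples.

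The cells were pancreatic alpha cells, the islet cells that secrete glucagon, differentiated in culture from HUES-8, which is an established line of human embryonic stem cells. They were held for 48 h in 30 mL bioreactors turning at 40 rpm, with the solvent DMSO in 6 samples and with 5 uM tunicamycin in 6 samples. Tunicamycin blocks the first step of N-glycan assembly so that misfolded proteins accumulate in the endoplasmic reticulum (ER). All 12 samples derive from this 1 cell line, and samples numbered 1 to 3 of each group were sequenced in batch 1 and those numbered 4 to 6 in batch 2. A sample is named below by its group and number, such as DMSO 5.

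Ligands of this superfamily are made as precursors that form disulfide-linked dimers in the ER and are cut by furin-like proteases. Nodal, the activins, GDF11 and the TGF-beta proteins bind pairs of receptor kinases at the cell surface, which phosphorylate SMAD2 and SMAD3, and these enter the nucleus with SMAD4. Nodal also needs a co-receptor of the Cripto family, and LEFTY proteins block Nodal, while their own genes are classic targets of Nodal signalling. Activin is used to direct pluripotent cells to endoderm, and GDF11 acts on endocrine progenitors in the developing pancreas.

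The libraries held 17.5 to 28.9 M counts, on average 23.3 ± 4.47 M with DMSO and 22.2 ± 1.70 M with tunicamycin (SD, 6 libraries each). HSPA5, the main ER chaperone, rose from 845 to 5270 CPM (counts scaled to a library of 1e6), and DDIT3, which encodes the stress factor CHOP, from 26.2 to 115 CPM. All 7 of 7 ER stress genes on the list rose by edgeR's quasi-likelihood test. GCG, which encodes glucagon, had means of 74634 CPM in DMSO samples and 56820 CPM in tunicamycin samples, so the cells carried the defining alpha cell transcript. The pluripotency factor gene POU5F1 was at 0.0162 and 0.0126 CPM. It is 1 of 10 pluripotency markers on a list, of which 6 passed the filter on low counts. The list summed to 67.6 to 111 CPM with DMSO and 55.2 to 149 CPM with tunicamycin. In bulk samples such as these, fewer cells of a type and less RNA per cell cannot be told apart.

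Promoters of INHBA, whose transcript was higher with tunicamycin, and of GDF11, whose transcript was lower, are shown because these genes moved in opposite directions in 6 of 6 pairs of equally numbered samples. Each runs from 250 bases before to 50 bases after the start site that RefSeq gives on GRCh38.p14. The INHBA stretch lies at chr7:41703041-41703340 on the minus strand and the GDF11 stretch at chr12:55742872-55743171 on the plus strand. Capitals mark the letters CAGAC, a short SMAD-binding sequence.
INHBA: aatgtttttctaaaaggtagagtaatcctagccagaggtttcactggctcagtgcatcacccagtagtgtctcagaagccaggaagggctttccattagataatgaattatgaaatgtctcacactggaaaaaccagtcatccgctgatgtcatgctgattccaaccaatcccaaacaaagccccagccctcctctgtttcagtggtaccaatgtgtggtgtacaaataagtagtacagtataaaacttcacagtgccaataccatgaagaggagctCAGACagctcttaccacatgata
GDF11: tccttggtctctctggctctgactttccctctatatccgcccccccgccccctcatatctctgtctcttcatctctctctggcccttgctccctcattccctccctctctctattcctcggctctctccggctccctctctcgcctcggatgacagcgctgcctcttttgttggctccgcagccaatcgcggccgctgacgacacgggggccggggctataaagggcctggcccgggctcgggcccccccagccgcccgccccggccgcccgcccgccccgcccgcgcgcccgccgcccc
GC made up 43.33% of the INHBA stretch and 70% of the GDF11 stretch. RefSeq promoters were found for 7 of the 10 genes, and LEFTY1, LEFTY2 and INHBE have no entry.

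Short sequences were searched on both strands in these 7 promoters and in all 35116 promoters of the same length. CAGAC occurred in 3 of the 7, those of INHBA, TGFB2 and TGFB3, and in 45.3% of all promoters. In INHBA it covered bases 278 to 282 of the printed stretch. The palindromic SMAD element GTCTAGAC, which shares the letters AGAC with it, was in 0 of 7 and in 0.202% of all. The motif of FOXH1, the partner of SMAD2 in Nodal signalling (AATNCACA), was in 0 of 7 and in 3.31% of all. A loose form of the AP-1 site, TGANTCA with any base at N, occurred in FST alone of the 7 and in 7.71% of all. The letters in FST were TGATTCA. The C/EBP-ATF composite element TGATGNAA (3.62% of all), the cAMP response element TGACGTCA (1.85%), the ER stress response element (0.0769%) and the ER stress response element II (0.0541%) were in 0 of the 7. A match or its absence describes only the letters of these windows.

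All 10 genes passed the filter on low counts that left 17137 genes. At an adjusted p under 0.05 by edgeR's quasi-likelihood test, which allowed for batch, 2 of the 10 were higher with tunicamycin (INHBA and INHBE) and 2 were lower (LEFTY1 and GDF11). Over all genes tested 7.84% passed, 4.56% higher and 3.29% lower. With the sample number as a block, which takes each difference within a pair of equal numbers, 2 of the 10 were higher and 4 lower, against 17.3% of all genes in either direction. CPM values of the groups did not overlap for LEFTY1, INHBA and INHBE, as for 3.77% of all genes (2.47% higher and 1.3% lower with tunicamycin). Since the genes were chosen on this contrast, nothing is read from these counts. The median log2 fold change was -0.23 over the 10 genes and -0.01 over all genes.

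**Figure D1:**
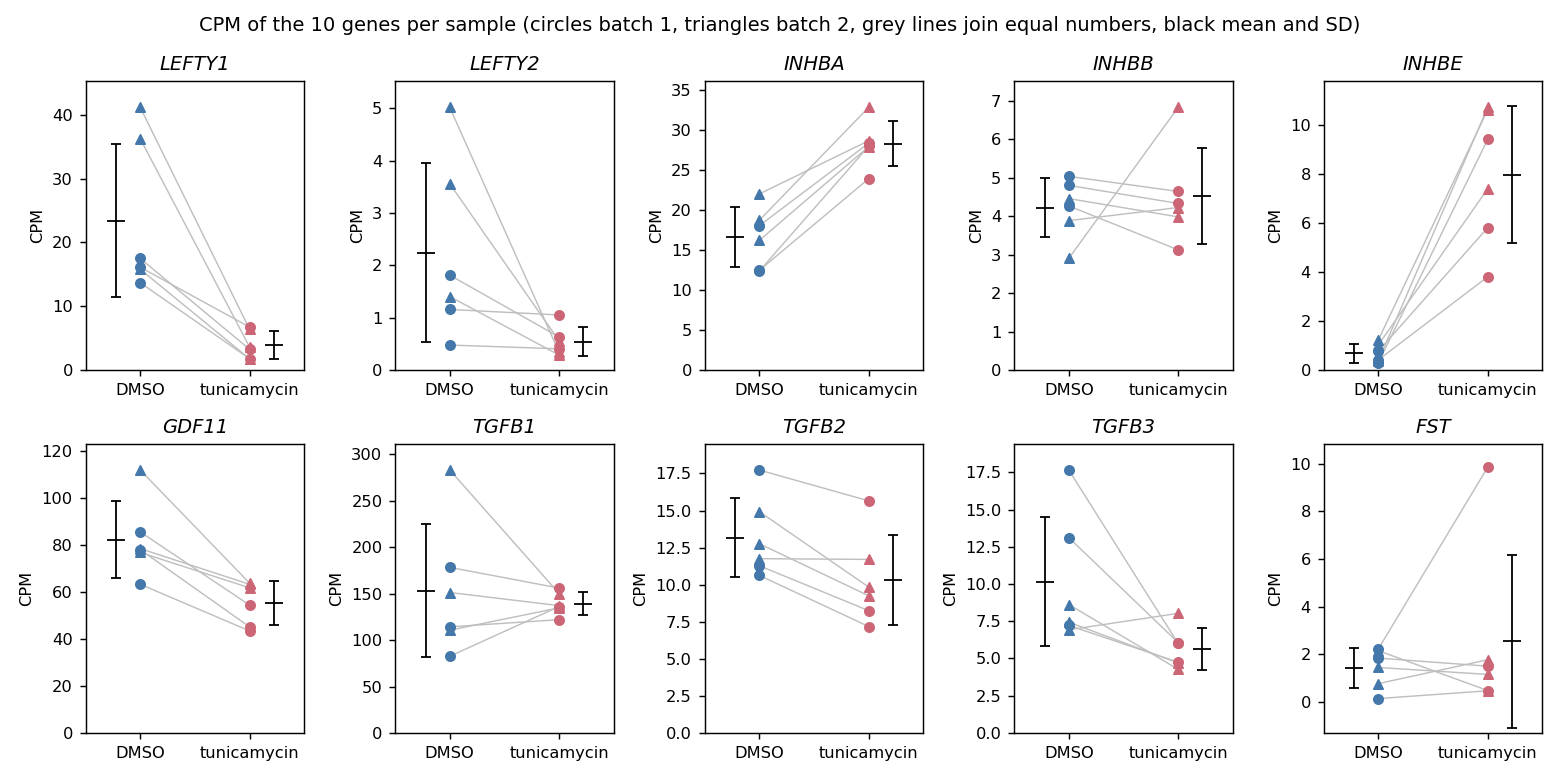
CPM of the 10 genes in each sample, DMSO left and tunicamycin right in each panel, with circles for batch 1, triangles for batch 2, grey lines joining equal numbers, and black bars for mean and SD (n = 6). Every line falls for LEFTY1 and GDF11 and rises for INHBA and INHBE, and a single tunicamycin sample stands at 9.85 CPM for FST, where the SD bar reaches below 0.

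LEFTY1, the more abundant of the Nodal inhibitors, was 5.60-fold lower with tunicamycin. It lies on chromosome 1 at 225886282 to 225911382, minus strand (GENCODE 29, GRCh38). Its level ran from 13.7 to 41.1 CPM in the DMSO samples, with a median of 16.8, and from 1.78 to 6.74 CPM in the tunicamycin samples, with a median of 3.45. DMSO 5 and DMSO 6 stood apart at 36.2 and 41.1 CPM, the other 4 DMSO samples lay between 13.7 and 17.5 CPM, and the lowest DMSO sample was above the highest tunicamycin sample. The means were 23.4 ± 11.997 and 3.93 ± 2.18 CPM (SD, n = 6 each), and the log2 fold change was -2.48 ± 0.38 (SE). In batch 1 the means were 15.8 and 3.94 CPM and in batch 2 31.1 and 3.93 CPM, so the tunicamycin levels of the batches differed by less than the spread between replicates. Fitted within a batch, the log2 fold change was -2.00 in batch 1, where it missed the threshold, and -2.99 in batch 2. With any 1 sample left out it ran from -2.83 to -2.27 and stayed past the threshold.

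LEFTY2 (chromosome 1, 225936598 to 225941489, minus strand) was measured from far fewer reads, 14 to 114 per DMSO library and 6 to 28 per tunicamycin library. It ran from 0.480 to 5.02 CPM with DMSO (median 1.61) and from 0.288 to 1.05 CPM with tunicamycin (median 0.483). DMSO 5 and DMSO 6 were again the highest, at 3.56 and 5.02 CPM, but DMSO 1, at 0.480 CPM, lay inside the tunicamycin range. The log2 fold change was -1.86 ± 0.54, negative in 6 of 6 pairs, and it missed the threshold in the fit with batch as a covariate. It passed with the block (-1.77 ± 0.48), without DMSO 1 and without tunicamycin 3. It also passed with DESeq2, with no filter, without the batch term, in batch 2 alone and without both samples numbered 1. The fits with marker covariates are given below. It missed with RLE scaling, in batch 1 alone and without both samples numbered 5. In batch 1 the means were 1.15 and 0.699 CPM, a log2 fold change of -0.71, and in batch 2 they were 3.33 and 0.395 CPM, a log2 fold change of -3.06.

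LEFTY1 and LEFTY2 arose by duplication and are close copies, so their reads can be split between them by the counting. Of the 75-base stretches in LEFTY1 transcripts 20.28% (368 of 1815) also occur in LEFTY2 transcripts, which is 15.43% of the 2385 stretches of LEFTY2. LEFTY2 took 8.18 ± 3.25% of the counts of both genes with DMSO and 13.8 ± 6.86% with tunicamycin. Single samples ran from 2.67% in DMSO 1 (95% exact binomial interval 1.47 to 4.44%) to 26.1% in tunicamycin 2 (14.3 to 41.1%). The ranges of the groups overlapped. Intervals of this kind cover counting error only and leave out differences between samples. Reads were not tied to single molecules by identifiers, so the intervals may understate the counting error too.

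The beta subunits of the activins differed from one another in what they did. INHBA, which forms activin A as a homodimer (chromosome 7, 41667168 to 41705834, minus strand), was 1.71-fold higher with tunicamycin. Its level ran from 12.4 to 22.1 CPM with DMSO (median 17.2) and from 24.0 to 32.9 CPM with tunicamycin (median 28.2), and the groups did not overlap. The spread between samples was small in both groups, with means of 16.7 ± 3.77 and 28.3 ± 2.84 CPM. The log2 fold change was 0.78 ± 0.13, and it ran from 0.72 to 0.85 with 1 sample left out. Within single batches, with 3 samples a group, it was 0.90 and 0.64 and missed the threshold in each.

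INHBE encodes the beta E subunit and is best known as a liver transcript (chromosome 12, 57452323 to 57459280, plus strand). It had 11.5-fold more transcript with tunicamycin, the largest log2 difference among the 10 genes at 3.53 ± 0.34. It ran from 0.309 to 1.23 CPM with DMSO (median 0.599), on 9 to 28 reads per library, and from 3.80 to 10.7 CPM with tunicamycin (median 8.39), on 101 to 230 reads. Every tunicamycin sample was above every DMSO sample, and tunicamycin 3 was the lowest of its group. The value was 3.64 in batch 1 and 3.41 in batch 2, past the threshold in each, and ran from 3.35 to 3.69 with 1 sample left out.

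INHBB, which forms activin B (chromosome 2, 120346143 to 120351808, plus strand), was at 4.23 ± 0.76 CPM in DMSO samples and 4.52 ± 1.24 CPM in tunicamycin samples. It ran from 2.90 to 5.04 CPM with DMSO (median 4.36) and from 3.13 to 6.83 CPM with tunicamycin (median 4.28). The samples numbered 6 held the lowest DMSO value and the highest tunicamycin value, and INHBB was higher in 2 pairs and lower in 4. The log2 fold change of 0.10 ± 0.22 was smaller than its error.

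Per kilobase of exon, the scale on which genes can be set beside each other, INHBE made up 6.40 ± 3.29% of the summed level of the 3 beta subunits with DMSO and 34.4 ± 6.98% with tunicamycin. INHBA went from 55.9 ± 7.16% to 46.7 ± 5.92% and INHBB from 37.7 ± 8.74% to 18.9 ± 2.62%. INHBA remained the largest of the 3 by group mean on this scale. The INHBE share ran from 2.71 to 11.4% in DMSO samples and from 24.6 to 43.5% in tunicamycin samples, without overlap.

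GDF11, a ligand close to myostatin (chromosome 12, 55743280 to 55757278, plus strand), was 1.499-fold lower with tunicamycin. It ran from 63.2 to 112 CPM with DMSO (median 78.1) and from 43.3 to 63.6 CPM with tunicamycin (median 58.0). DMSO 4 was the highest sample, and DMSO 3, the lowest of its group, lay just below tunicamycin 4, so the groups overlapped by that margin. Each sample pair fell, and the log2 fold change was -0.58 ± 0.12, or -0.64 to -0.50 with 1 sample left out. Within batches it was -0.67 and -0.51 and missed the threshold in each.

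TGFB1, the most abundant of the 10 (chromosome 19, 41301587 to 41353911, minus strand), had close medians in the groups and unequal scatter. It ran from 82.6 to 283 CPM with DMSO (median 133) and from 122 to 156 CPM with tunicamycin (median 137). The DMSO samples had an SD of 71.9 CPM around 153, and the tunicamycin samples an SD of 12.1 CPM around 139. DMSO 6 was the highest, at 283 CPM, and DMSO 3 the lowest. The log2 fold change was -0.11 ± 0.22, with 3 pairs higher and 3 lower, and it was 0.12 without DMSO 6.

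TGFB2 (chromosome 1, 218346235 to 218444619, plus strand) was at 13.2 ± 2.69 CPM in DMSO samples and 10.3 ± 3.03 CPM in tunicamycin samples. It ran from 10.6 to 17.7 CPM (median 12.3) and from 7.18 to 15.7 CPM (median 9.54), with the samples numbered 1 the highest of each group. Its values were lower in 6 of 6 pairs, a pattern that 21.1% of all genes shared in one or the other direction, and the log2 fold change of -0.35 ± 0.20 missed the threshold. In pair 5 the values were 11.75 and 11.70 CPM.

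TGFB3 (chromosome 14, 75958099 to 75982991, minus strand) ran from 6.93 to 17.7 CPM with DMSO (median 8.03) and from 4.27 to 8.03 CPM with tunicamycin (median 5.38). DMSO 1 and DMSO 3 stood above the rest at 17.7 and 13.1 CPM, and the other 4 DMSO samples lay between 6.93 and 8.63 CPM. It was lower in 5 of 6 pairs, the exception being the samples numbered 5. The log2 fold change of -0.81 ± 0.25 missed the threshold, and it passed with the block (-0.80 ± 0.21), without DMSO 2 and without tunicamycin 5. It also passed with DESeq2 and without both samples numbered 5, and missed the threshold in the other fits. Of the summed level of the 3 TGF-beta ligands per kilobase of exon, TGFB1 took 89.6 ± 5.25% with DMSO and 93.1 ± 2.02% with tunicamycin.

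FST, the activin-binding protein (chromosome 5, 53480409 to 53487134, plus strand), was low and scattered, on 4 to 65 reads per DMSO library and 9 to 241 per tunicamycin library. It ran from 0.148 to 2.23 CPM with DMSO (median 1.65) and from 0.475 to 9.85 CPM with tunicamycin (median 1.33). Tunicamycin 1 alone held the 9.85 CPM, and the next tunicamycin sample was at 1.78 CPM. The log2 fold change of 0.60 ± 0.74 became -0.41 without that sample, and 3 pairs were higher and 3 lower.

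**Figure D2:**
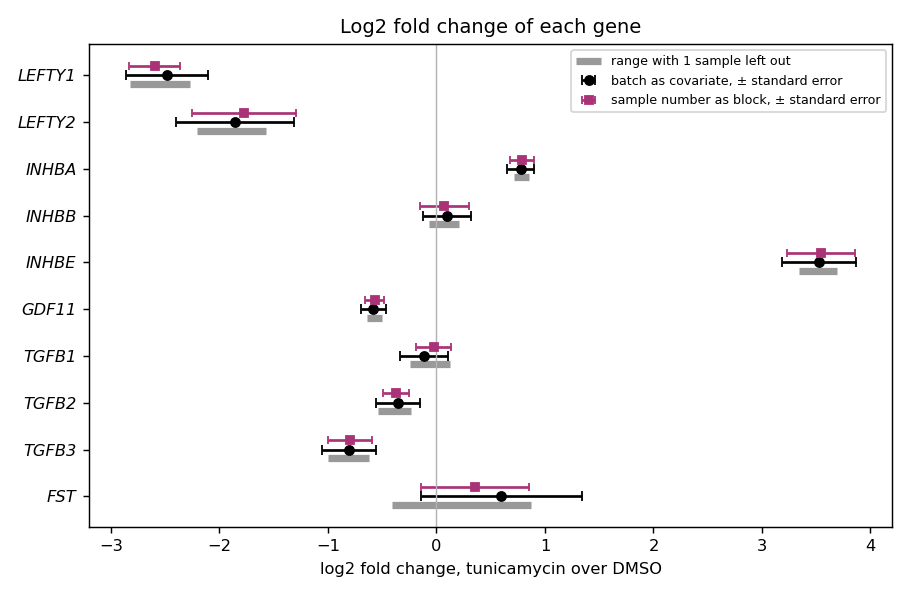
Log2 fold change of tunicamycin over DMSO for each gene, with batch as a covariate (black, bars are the standard error), with the sample number as a block (purple), and as the range over 12 fits that each leave out 1 sample (grey). LEFTY1, INHBA, INHBE and GDF11 keep their sign in all of these, and the grey bars of INHBB, TGFB1 and FST cross 0.

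Counts of several of these genes may hold reads of a neighbour, because the counting's strand setting was not given in the sources used here. In GENCODE 29, genes on the opposite strand overlap INHBA (INHBA-AS1), GDF11 (SARNP), TGFB1 (HNRNPUL1, CCDC97 and TMEM91) and TGFB3 (IFT43 and TGFB3-AS1). LEFTY1, LEFTY2 and TGFB2 overlap gene models on their own strand. INHBB, INHBE and FST overlap none.

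Whether the genes differed between sequencing batches was a question that the choice of genes did not use. By edgeR's quasi-likelihood test of batch 2 against batch 1, 0 of the 10 passed the threshold, against 3.62% of all genes, and 3 of the 10 had an unadjusted p under 0.05, near the 23.9% of all genes that did. GDF11 was higher in batch 2 by 0.32 ± 0.11 on the log2 scale (unadjusted p = 0.0154, adjusted p = 0.117), INHBA by 0.28 ± 0.13 (adjusted p = 0.195) and INHBE by 0.68 ± 0.32 (adjusted p = 0.209). LEFTY1, whose high DMSO samples both belong to batch 2, differed by 0.51 ± 0.37 (edgeR adjusted p = 0.416). This fit counted the 12 samples as independent, although equally numbered samples were found to pair. Each batch holds only 3 numbers, so the errors and p-values may be too small and the shares of genes passing too high.

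Whether the response to tunicamycin differed between the batches was tested with an interaction term. In edgeR 0 of the 10 genes and 0 of 17137 genes passed, with 1 of the 10 and 169 of all genes (0.986%) at an unadjusted p under 0.05. DESeq2 also called 0 genes, with 191 at an unadjusted p under 0.05. LEFTY2 had the smallest p of the 10, with a difference of -2.35 ± 0.86 (edgeR unadjusted p = 0.0176, adjusted p = 1). For LEFTY1 the difference was -0.99 ± 0.70 (edgeR unadjusted p = 0.179). This fit ignored the pairing of equal numbers. The 0.986% is less than a threshold of 0.05 gives by chance, so the fit may miss differences. With the sample number as a block the difference was -2.32 ± 0.69 for LEFTY2 and -0.90 ± 0.39 for LEFTY1. In that fit 0 of the 10 genes and 0 of all genes passed.

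Ordered by CPM per kilobase of exon, TGFB1 led in DMSO samples at 47.4 ± 22.2, followed by LEFTY1 at 12.4 ± 6.34 and GDF11 at 9.50 ± 1.87. TGFB2 (2.56 ± 0.52), TGFB3 (2.07 ± 0.88), INHBA (2.01 ± 0.45) and INHBB (1.32 ± 0.24) formed a middle range on the same scale, and LEFTY2 (0.936 ± 0.714), FST (0.483 ± 0.278) and INHBE (0.230 ± 0.126) were lowest. With tunicamycin the order was TGFB1 (43.0 ± 3.74), GDF11 (6.38 ± 1.06), INHBA (3.41 ± 0.34), INHBE (2.64 ± 0.92), LEFTY1 (2.08 ± 1.15), TGFB2 (2.00 ± 0.59), INHBB (1.41 ± 0.39), TGFB3 (1.15 ± 0.28), FST (0.856 ± 1.22) and LEFTY2 (0.229 ± 0.117). INHBE thus moved from the last place to the fourth, and LEFTY1 from the second to the fifth.

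Neighbours in each order were compared within samples by an exact two-sided sign-flip permutation test on their log2 ratio, 9 tests in each group. The order came from the group means of the same samples, so these tests describe it and are not independent evidence for it. The smallest p that 6 samples allow is 0.03125, and an adjusted p under 0.05 would need at least 6 of the 9 tests to reach it. With DMSO that smallest p was reached by TGFB1 over LEFTY1 and by GDF11 over TGFB2, each higher in 6 of 6 samples (exact permutation, adjusted p = 0.141). With tunicamycin it was reached by TGFB1 over GDF11 and by GDF11 over INHBA (exact permutation, adjusted p = 0.141). In the other 14 neighbour pairs the order was not the same in all 6 samples. Exon lengths were taken over all GENCODE 29 transcripts of a gene, and a gene that uses a shorter form has a higher level per kilobase than given here.

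**Figure D3:**
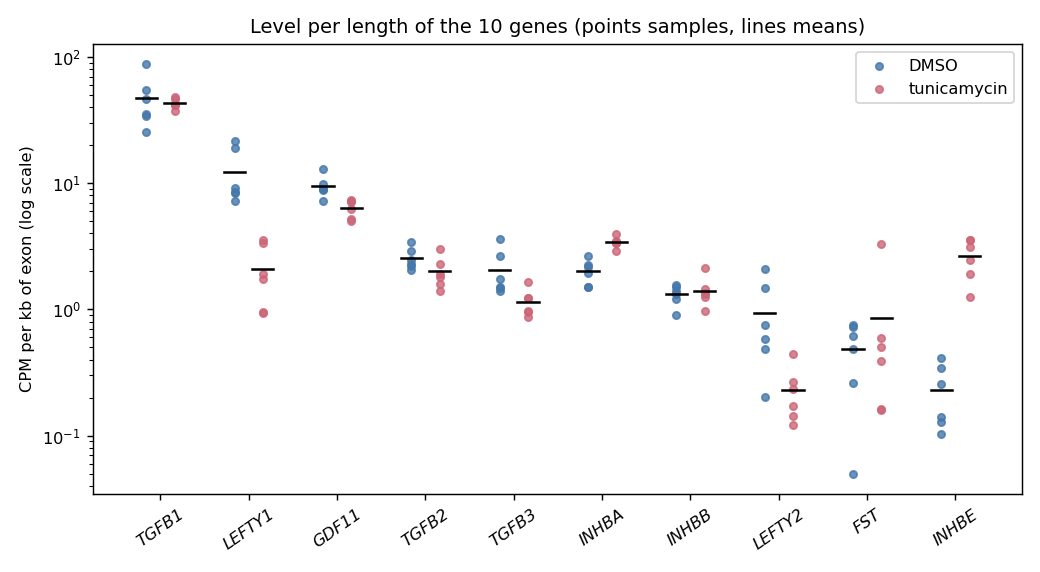
Levels of the 10 genes per kilobase of exon on a log axis, each point a sample, DMSO and tunicamycin side by side, with the group means. TGFB1 is highest in both groups, at means of 47.4 and 43.0, and the INHBE and LEFTY1 levels cross the middle range in opposite directions.

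The scatter of a gene around an additive fit of group and batch was set against genes of like abundance, within 0.5 log2 CPM. A response that differed between the batches counts as scatter on this measure. TGFB1, with a residual SD of 0.45 on the log2 scale, exceeded 97.1% of such genes, FST (1.47) exceeded 96.9% and LEFTY1 (0.75) exceeded 96.4%. GDF11 (0.20) and INHBA (0.21) were in the middle, above 52.3% and 41.0%, and INHBB (0.34) was above 28.0%.

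The genes whose pattern over the 12 samples was most like that of LEFTY1 were CALB2, CALB1, C7, COL9A3 and DIO3. Likeness was the mean absolute difference of log2 CPM after centring each gene, among 14289 genes with a mean log2 CPM of at least 1. It was 0.50, 0.52, 0.54, 0.55 and 0.58 for these 5. LEFTY2, with a mean log2 CPM of 0.57, was below that limit and was not compared. CALB1 and CALB2 encode the calcium-binding proteins calbindin and calretinin, C7 a complement component, COL9A3 a collagen chain and DIO3 a deiodinase that inactivates thyroid hormone. CALB1 ran from 44.2 to 76.1 CPM with DMSO and from 5.12 to 21.2 CPM with tunicamycin. CALB2 ran from 7.66 to 13.2 CPM and from 1.85 to 6.10 CPM. LEFTY1 was chosen for its difference between the groups, so the likeness is given as a description.

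**Figure D4:**
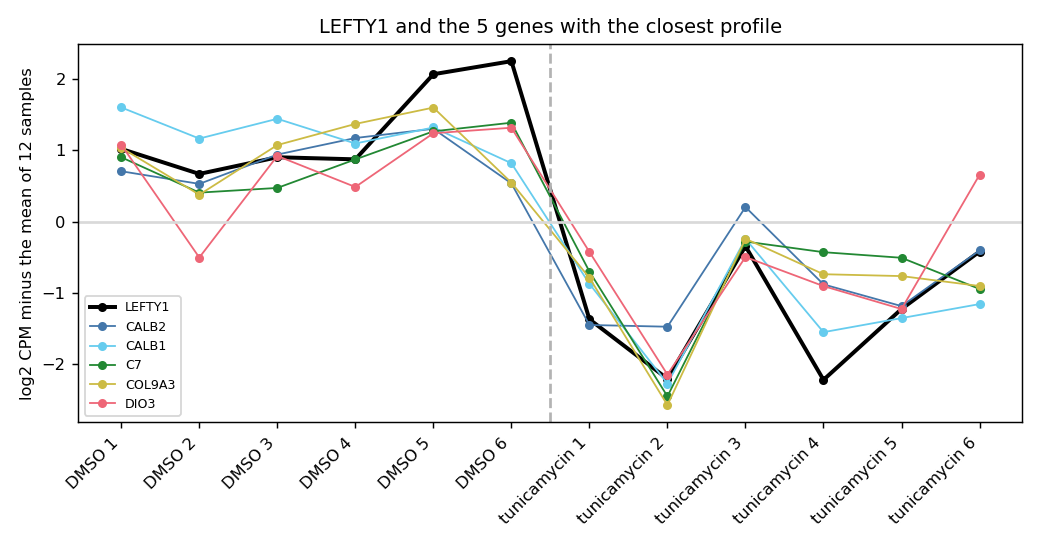
Log2 CPM of LEFTY1 (thick line) and of the 5 genes most like it, each centred on its own mean, over the 6 DMSO and then the 6 tunicamycin samples. All 6 genes lie higher on average in the DMSO samples, with log2 fold changes from -2.48 for LEFTY1 to -1.40 for DIO3.

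Other genes of the pathway were described from lists of ligands, receptors, SMADs and their cofactors, extracellular regulators and targets. The lists were written with earlier results of these data known. List genes given with a p were picked because they passed, so their p-values are a description, not evidence. Of these 67 genes 56 passed the filter, and by edgeR's quasi-likelihood test 2 rose, 7 fell and 47 did not pass, against 4.56% and 3.29% of all genes. With the block 6 rose and 11 fell, against 17.3% of all genes in either direction (1528 higher and 1439 lower). The median log2 fold change of the 56 was -0.14.

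Among the other ligands 0 of 4 tested genes rose and 2 fell. INHA, whose alpha subunit pairs with a beta subunit to form inhibin in place of activin, fell from 12.7 ± 4.68 to 5.70 ± 1.58 CPM (log2 fold change -1.15 ± 0.19, edgeR adjusted p = 0.00168). BMP4 fell from 5.59 to 2.94 CPM (-0.93 ± 0.26, edgeR adjusted p = 0.0427), a call lost without DMSO 1, 4 or 5 or any 1 tunicamycin sample. It passed with the sample number as a block (-0.89 ± 0.18). NODAL itself was too low to test, at 0.337 ± 0.333 CPM in DMSO samples and 0.472 ± 0.189 CPM in tunicamycin samples, well under LEFTY1. GDF1, GDF3, MSTN and INHBC were not tested either, and GDF1 had 0 counts in every sample.

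Of 13 receptors and co-receptors tested 0 rose and 3 fell. TGFBR3, or betaglycan, which presents TGF-beta 2 and inhibin to the receptors, fell from 20.3 to 13.0 CPM (-0.64 ± 0.15, edgeR adjusted p = 0.0165). CFC1, which encodes the Nodal co-receptor Cryptic, fell from 111 ± 42.8 to 66.7 ± 14.3 CPM (-0.72 ± 0.18, edgeR adjusted p = 0.0277), and its near-identical copy CFC1B fell by 0.88 on the log2 scale (edgeR adjusted p = 0.0284). Reads of CFC1 and CFC1B can be exchanged by the counting, so their separate values are uncertain. The CFC1 call was lost without DMSO 1 or 5 or tunicamycin 1, 3, 4, 5 or 6. That of CFC1B was lost without DMSO 1, 4 or 5 or tunicamycin 1, 4, 5 or 6. Both passed with the block, at -0.68 ± 0.12 for CFC1 and -0.87 ± 0.22 for CFC1B. TDGF1, the Cripto gene, was not tested, at 0 CPM in every DMSO sample.

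Of 13 SMADs and cofactors 0 rose and 1 fell, the inhibitory SMAD7, from 56.8 ± 8.77 to 39.1 ± 4.10 CPM (-0.54 ± 0.11, edgeR adjusted p = 0.00895). Of 16 extracellular regulators 1 rose and 0 fell, against 3 and 2 with the block, which called 17.3% of all genes. The gene that rose was THBS1, whose product thrombospondin 1 can activate latent TGF-beta, from 45.9 ± 10.4 to 102 ± 16.5 CPM (1.16 ± 0.15, edgeR adjusted p = 0.000219).

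Of 15 targets 1 rose and 2 fell, against 2 and 5 with the block, which called 17.3% of all genes. CCN2, which encodes connective tissue growth factor, rose from 45.8 ± 9.82 to 111 ± 24.2 CPM (1.28 ± 0.17, edgeR adjusted p = 0.000421). JUNB, an AP-1 subunit, fell from 107 to 66.3 CPM (-0.71 ± 0.17, edgeR adjusted p = 0.0220). Its call was lost without DMSO 5, tunicamycin 3 or tunicamycin 5, and it passed with the block (-0.69 ± 0.16). SMAD7 counts among the targets too. The Nodal targets GSC and EOMES were too low to test.

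**Figure D5:**
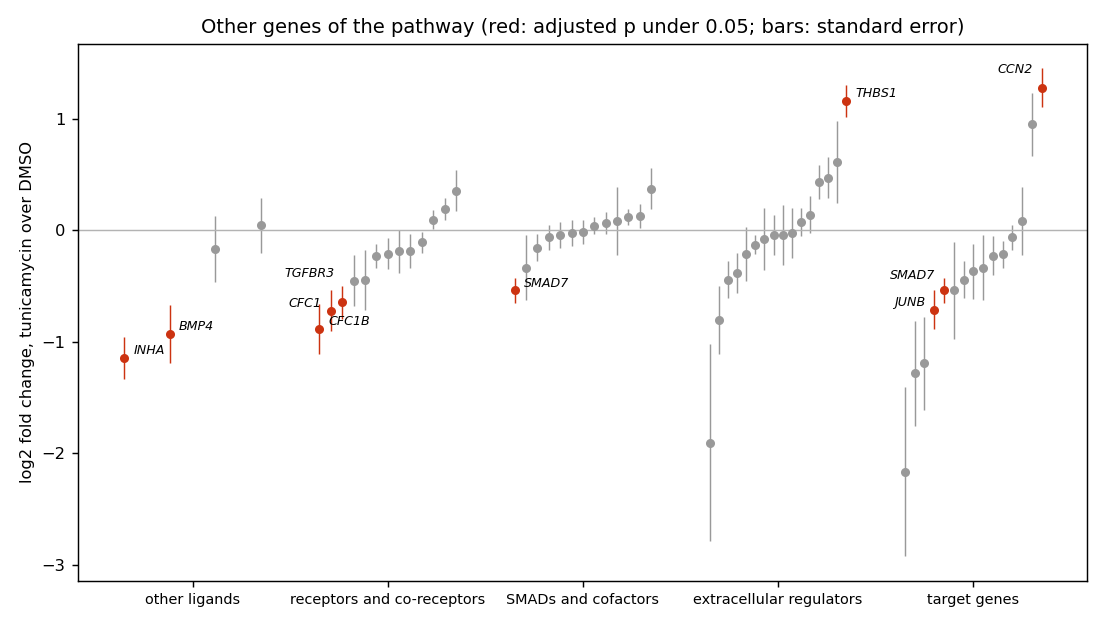
Log2 fold change of tunicamycin over DMSO, with standard error, for the tested genes of the 5 pathway lists, in which red marks an adjusted p under 0.05 and SMAD7 appears in 2 lists. THBS1 and CCN2 are the 2 that rose, and the 7 that fell lie between -1.15 and -0.54.

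Markers of other cell types varied between libraries, and the summed levels of the groups overlapped for each list. Of all genes 7.84% were called by edgeR with batch as a covariate, and 17.3% with the block. The summed level of 16 mesenchymal markers ran from 790 to 2630 CPM with DMSO and from 892 to 1584 CPM with tunicamycin, and the median log2 fold change of the list was -1.09, with 1 called higher and 0 lower (1 and 10 with the block). The sum of 12 heart muscle markers ran from 35.9 to 2298 CPM and from 33.4 to 1213 CPM, highest in the samples numbered 5, with a median of -2.01 and 0 called by edgeR (2 with the block). The sum of 8 endothelial markers ran from 70.0 to 170.0 CPM and from 34.99 to 87.3 CPM, with a median of -1.34 and 2 of 7 tested called lower. Alpha cell markers summed to between 80234 and 119185 CPM with DMSO and between 59993 and 96148 CPM with tunicamycin, and 11 of 11 did not pass. The sum of 8 endocrine progenitor markers, 2 of which are also on the alpha cell list, ran from 2078 to 3022 CPM and from 1784 to 2633 CPM. Of these markers RFX6 was called higher and NEUROG3, PAX4 and FEV lower, with a median of -0.36. The sum of 10 pluripotency markers ran from 67.6 to 111 CPM and from 55.2 to 149 CPM, and 6 of 6 tested did not pass. No list had a marker at 0 in all samples. The part of these cells in the results was not tested beyond fits that add the mean of a marker list as a covariate.

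With the mesenchymal, heart muscle or endothelial mean as a covariate the log2 fold change of LEFTY1 was -2.38, -2.55 and -2.79, that of INHBA 0.83, 0.83 and 0.84, and that of INHBE 3.40, 3.43 and 3.44, each past the threshold. That of GDF11 was -0.56, -0.55 and -0.45, the last missing the threshold. LEFTY2 passed in all 3, at -2.13, -1.96 and -2.73. TGFB3 moved to -0.41, -0.66 and -0.35, and TGFB2 to -0.12, -0.26 and 0.00603. Among pathway genes the calls of BMP4 and CFC1 were lost in all 3 fits, with edgeR adjusted p of 0.22003, 0.0574 and 0.410 for BMP4 and of 0.0766, 0.0570 and 0.0826 for CFC1. The call of CFC1B was lost with the heart muscle mean and that of JUNB with the endothelial mean (edgeR adjusted p = 0.0596 for each). BMP4 was at -0.52 with the mesenchymal and -0.39 with the endothelial mean. INHA, TGFBR3, SMAD7, THBS1 and CCN2 stayed past the threshold in all 3. The heart muscle and endothelial fits were added after seeing the data.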

How the data were processed

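RNA was sequenced in bulk from 6 DMSO and 6 tunicamycin samples of stem cell-derived alpha cells. The authors deposited whole-number read counts per gene symbol, without normalization. The tools, per the submitters' processing notes, were featureCounts 2.0.6, HISAT2 2.1.0 and cutadapt 4.4, with the GRCh38 build. The gene annotation, the strand setting and the treatment of multimapping reads were not given in the sources used here.

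The members and lists were chosen with earlier results of these data known, and 2 list genes are not reported here. Counts were filtered with filterByExpr of edgeR 4.0.16 (R 4.3.3), which left 17137 genes and removed 11141, and scaled with TMM. CPM values use the scaled library sizes. Tunicamycin was compared with DMSO by edgeR's quasi-likelihood test with a batch term, on all 12 samples, with Benjamini-Hochberg adjustment over all genes, a threshold of 0.05 and two-sided p. The fits were run on simulated data with independent samples, so errors that arise from pairs of samples were not tested. DESeq2 1.42.0, RLE scaling, no filter, no batch term, single batches, marker covariates, a block for sample number and omission of each sample were alternatives. Exon lengths and positions came from GENCODE 29.

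All 10 genes of interest are named. From each pathway list up to 3 genes past the threshold are named, by the size of the change, at a mean log2 CPM of at least 0, and where none passed the 2 most abundant. HSPA5 and DDIT3 check the treatment, and the 5 genes most like LEFTY1 had a mean log2 CPM of at least 1. Other genes were chosen after their values were seen.

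Samples of a group differed from one another beyond sampling noise (chi-square per gene 10.9 to 99.6), so each was counted. The labels call them biological replicates but do not say whether they came from separate differentiations, so p-values describe only the spread among these samples. Equal numbers were found to pair the samples, a finding from the data since no label says what a number marks. Deviations from group and batch means of equally numbered samples correlated at 0.50, 0.58, 0.52, 0.12, 0.18 and 0.18, and the highest value with another number was 0.27.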

Additional observations from a re-analysis of the deposited data

Results flagged for a closer look

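Of 50 sets of 6 values examined, 6 held a sample far from the other 5, its gap to the nearest, as a share of the whole range, exceeding the 95% critical value of Dixon's test. About 1 set in 20 would do so by chance. FST stood at 9.85 CPM in tunicamycin 1, with the next sample of its group at 1.78 CPM. THBS1 stood at 66.9 CPM in DMSO 6, the next at 43.7 CPM. The summed heart muscle markers reached 2298 CPM in DMSO 5, the next at 618 CPM, and 1213 CPM in tunicamycin 5, the next at 227 CPM. The summed pluripotency markers reached 111 CPM in DMSO 1, the next at 76.9 CPM, and 149 CPM in tunicamycin 1, the next at 86.5 CPM.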

How the results depend on the processing

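Depth limits LEFTY2, INHBE with DMSO and FST, which rest on few reads. Fits without both samples numbered 5 or both numbered 1 were added after seeing the data. Of all genes, 1344 passed. The count was 2100 with DESeq2 (1007 lower), 2967 with the replicate block (1528 higher, 1439 lower), 57 in batch 1 alone (51 and 6), 642 in batch 2 alone (434 and 208) and 687 without both samples numbered 5 (463 and 224). The lower count was 365 and 354 with the mesenchymal and endothelial means. Leaving out 1 sample gave 794 to 1404 genes, 516 to 844 higher and 278 to 595 lower, with the lowest of each without tunicamycin 4.

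Of the 10 genes, 4 were lower with DESeq2 and 4 with the block, 0 lower and 1 higher in batch 1 alone and 1 higher in batch 2 alone. Without 1 sample 2 were higher and 2 to 3 lower. Of the pathway genes, 6 were higher and 11 lower with the block. Higher were 4 with the mesenchymal mean and 1 in batch 1 alone. Lower were 4 without the batch term, 0 in batch 1 alone, 2 in batch 2 alone, 2 without both samples numbered 5 and 4 with the heart muscle mean. Of the 9 called pathway genes, CFC1, CFC1B and JUNB were lost without the batch term, and BMP4, CFC1 and CFC1B without both samples numbered 1. Those 4 and TGFBR3 were lost without both numbered 5 and in batch 2 alone, and all but THBS1 in batch 1 alone. With the block all 9 stayed past the threshold. Without 1 sample 2 to 3 were higher and 3 to 8 lower. For the batch difference, DESeq2 called 1870 genes against 620, and leaving out 1 sample gave 26 (without tunicamycin 5) to 1321. The batch and interaction counts of the 10 genes stayed at 0 when 1 sample was left out.

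Directions turned for INHBB (-0.22) and TGFB1 (0.14) in batch 1 alone, FST in batch 2 alone (-0.37) and without both samples numbered 1 (-0.20), and TGFB2 with the endothelial mean (0.00603). The batch difference of INHBB was 0.000153 with no filter, and the interaction of TGFB2 was 0.037 with the replicate block. With 1 sample left out, the log2 fold change ran from -0.41 to 0.87 for FST, -0.24 to 0.12 for TGFB1 and -0.066 to 0.20 for INHBB. The batch difference ran from -0.17 to 0.10 for INHBB, -0.10 to 0.16 for TGFB2 and -1.22 to 0.11 for FST, and the interaction from -0.69 to 0.17 for INHBE, -0.28 to 0.40 for TGFB2 and -2.38 to 0.10 for FST. Causes were not tested, and the fits that leave samples out also had fewer samples. The block changed no other call of the 10 genes than those of LEFTY2 and TGFB3.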
